A study of Mus musculus with 24 samples.

Results

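AP-1 and its companion immediate early genes were followed in whole kidneys of mice with Pkd1 alleles that do or do not cause cysts. The set held 10 genes, picked by symbol from the table of read counts: Fos, Fosb, Fosl1, Fosl2, Jun, Junb, Jund, Atf3, Egr1 and Ier3. They are 10 of 54532 genes in the table and 10 of the 22570 genes that passed the expression limit (log2 CPM averaging -3 or more across the 24 libraries, where CPM is the read count scaled by the total count of its library). All 10 passed it. These genes and the gene lists below were chosen with earlier results of these data known. Their counts, set beside the shares of all genes, are therefore descriptions.

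The mice were labelled C57BL/6 (a C57BL/6 J background in the study's methods) and were killed at 18 days of age, and 1 library was made from each. All of them had 1 RC allele of Pkd1, which is a missense allele and lowers the mature form of polycystin-1. RC/+ mice (Pkd1 RC/F without Cre, labelled control) kept a working floxed allele, and RC/- mice (Ksp-Cre; Pkd1 RC/F, labelled cystic) lost it where Ksp-Cre is active, in kidney tubule epithelium. In the edited lines D18 (founder 3) and D53 (founder 2) the miR-17 motif was removed from the 3′ UTR of the RC allele, so each edited line descends from 1 founder. There were 3 mice in each noncystic group (RC/+, RC/+ D18, RC/+ D53) and 5 in each cystic group (RC/-, RC/- D18, RC/- D53). Because all RC/- mice and no RC/+ mice are described as carrying Cre, Cre and the cystic genotype cannot be told apart. In a whole kidney, more cells of a type and more RNA per cell cannot be told apart either.

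AP-1 is a transcription factor made of pairs of basic leucine zipper proteins. Jun family members (Jun, Junb, Jund) pair with each other or with Fos family members (Fos, Fosb, Fosl1, Fosl2), and Atf3 is a related leucine zipper protein that pairs with Jun proteins. Immediate early genes are transcribed within minutes of a growth factor, cytokine or stress signal without new protein synthesis, Egr1 (a zinc finger factor) and Ier3 (a survival and stress response protein) among them, and in the kidney they are known for rising after tubule injury.

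Sequence upstream of the start site was read for 8 of the 10 genes, whose 250 bases before the RefSeq start are held in the RefSeq table for GRCm38.p6. Fosl1 and Egr1 were not analysed here. The windows of Fos and Jun are shown because they are the founding members of their families and both hold a variant of the CRE (cyclic AMP response element). Capitals mark TGACGTAG and TATAAA in Fos and TGACATCA in Jun, and each sequence is on the gene's own strand, 5′ to 3′.
Fos upstream window, chr12:85473640-85473889, plus strand: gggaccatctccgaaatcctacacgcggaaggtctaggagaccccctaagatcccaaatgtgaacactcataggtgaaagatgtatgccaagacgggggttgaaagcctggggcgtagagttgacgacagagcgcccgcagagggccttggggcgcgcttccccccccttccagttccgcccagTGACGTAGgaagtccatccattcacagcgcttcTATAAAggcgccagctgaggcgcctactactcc
Jun upstream window, chr4:95052223-95052472, minus strand: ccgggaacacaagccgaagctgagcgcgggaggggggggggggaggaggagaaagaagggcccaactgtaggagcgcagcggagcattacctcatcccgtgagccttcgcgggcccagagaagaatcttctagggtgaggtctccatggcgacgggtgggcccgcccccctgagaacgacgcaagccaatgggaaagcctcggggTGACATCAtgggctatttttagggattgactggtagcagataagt

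In Fos, TGACGTAG began 66 bases and TATAAA 33 bases before the start, and in Jun TGACATCA began 45 bases before it. On both strands, TGACGTAG was in 0.329% of 32851 RefSeq windows of the same length, TATAAA in 12.4% and TGACATCA in 2.93%. These motifs were added after the sequences had been seen. The AP-1 site TGACTCA (4.46% of all windows), the CRE TGACGTCA (1.55%) and the CArG box of the serum response element (1.47%) had no exact match in the 8 windows. The EGR site GCGGGGGCG (2.57% of all windows) was found in Fosb, 50 bases before the start, and in Fosl2, 79 bases before it. A match is a description of letters and not a measured binding site. Sites farther than 250 bases before the start were not searched for. The RefSeq start can also differ from that of the gene models given below. The Jund window (chr8:70697489-70697738) ends before its gene model, which begins at 70698949, and the windows of Atf3 and Fosl2 lie inside theirs.

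By the gene models of GRCm38 (GENCODE M21), Fos (ENSMUSG00000021250) spans chromosome 12, 85473890 to 85477273, and Jun (ENSMUSG00000052684) spans chromosome 4, 95049034 to 95052222. Junb (ENSMUSG00000052837) and Jund (ENSMUSG00000071076) both lie on chromosome 8, at 84974484 to 84978718 and 70698949 to 70700616. Fosb (ENSMUSG00000003545) lies on chromosome 7 (19302696 to 19310051), Fosl1 (ENSMUSG00000024912) on chromosome 19 (5447547 to 5455946), Fosl2 (ENSMUSG00000029135) on chromosome 5 (32135801 to 32157842), Atf3 (ENSMUSG00000026628) on chromosome 1 (191170296 to 191218039) and Ier3 (ENSMUSG00000003541) on chromosome 17 (35821684 to 35822923). Some exon bases are shared with genes on the opposite strand, and which strand the counting used is not stated. The shared part was 57.2% in Fosl1 (with Ccdc85b), 52.6% in Jund (with Gm11175), 7.52% in Junb (with Prdx2) and 7.28% in Jun (with Junos). The values of Fosl1 and Jund are therefore uncertain, by an amount that was not measured. The other 6 genes shared no exon base.

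Library totals ranged from 20.4 to 30.8 M counts. The least counted member, Fosl1, had 39 to 79 counts per library and the most counted, Jun, had 1201 to 4077. Pkd1, the gene the alleles change, ranged from 38.4 to 71.4 CPM over the 24 kidneys and passed the threshold in no comparison; its count pools both alleles and so does not check the labels. The libraries numbered 20 to 27 (replicates 20 to 22 of RC/- D18 and every RC/- D53 kidney) carried skeletal muscle genes. The sum of 6 muscle markers was 146.7 to 193.9 CPM in RC/- D53, 7.1 to 180.2 CPM in RC/- D18 and 5.3 to 9.4 CPM in the other groups, with Myh4, Ckm and Myh1 at 0 in some of those other libraries. These libraries were noticed in the counts, and the labels name no batch.

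**Figure D1:**
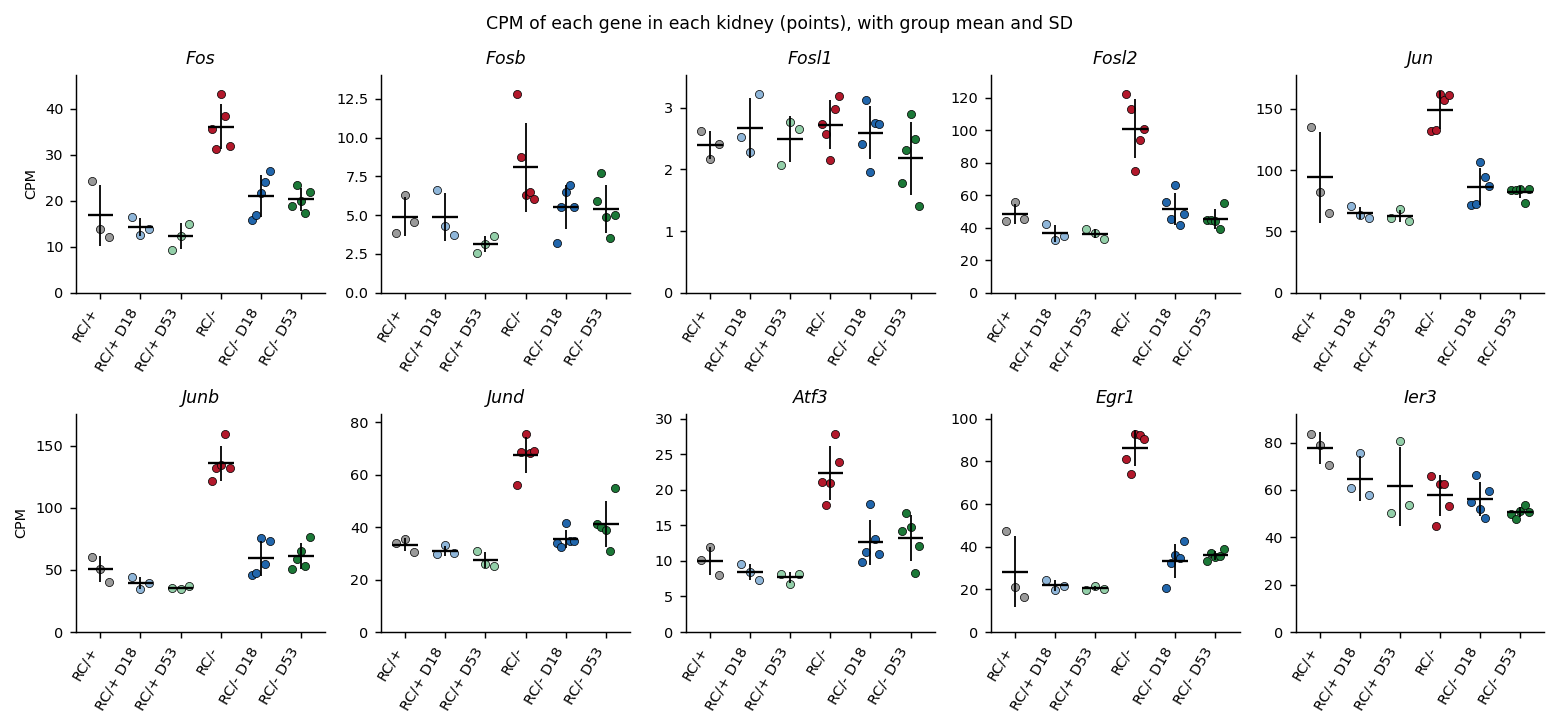
CPM (y axis, from 0) of the 10 genes in each of 24 kidneys (points) by group, with the group mean (horizontal line) and SD (vertical line), n = 3 in each RC/+ group and n = 5 in each RC/- group. For Junb the 5 unedited RC/- kidneys sit between 122 and 159.6 CPM and all other kidneys at or below 76.6 CPM, whereas the groups of Fosl1 overlap.

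RC/- kidneys were first set against RC/+ kidneys, to see how these genes differ with cystic disease when the miR-17 motif is intact. Fos, Fosl2, Jun, Junb, Jund, Atf3 and Egr1 were higher in RC/-, by 1.65-fold for Jun to 3.37-fold for Egr1. Ier3 was lower. Fosb and Fosl1 did not pass the test. Thus 7 of 10 genes were higher and 1 lower, beside 25.5% of all tested genes higher and 12.2% lower, and the median log2 fold change was 1.03 for the 10 genes and 0.14 for all genes. Each value is from limma-trend, with the Benjamini-Hochberg adjustment over all 22570 genes and a threshold of 0.05.

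Of the Jun family, Junb, which pairs with Fos proteins and often counters Jun, differed most. It was at 60.6, 50.8 and 39.9 CPM in RC/+ and at 122, 132, 134, 159.6 and 132 CPM in RC/-, in order of replicate number. Every RC/- kidney lay above every RC/+ kidney, and log2 fold change reached 1.44 (SE 0.16, adjusted p = 1.02e-07). Jund, the member with the steadiest expression in resting cells, was at 33.9, 35.3 and 30.5 CPM in RC/+ and at 56.3, 68.6, 75.7, 68.2 and 69.0 CPM in RC/-. Its groups did not overlap either (log2 fold change 1.02, SE 0.13, adjusted p = 7.18e-07). Jun itself, the strongest activator of the family, was at 136, 82.1 and 64.7 CPM in RC/+ and at 132, 133, 162, 157 and 161 CPM in RC/-. Here RC/+ replicate 4 lay above the lowest RC/- kidneys, and the log2 fold change was 0.73 (SE 0.16, adjusted p = 0.000653).

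In the Fos family, Fos (whose protein needs a Jun partner to bind DNA) was at 24.4, 13.9 and 12.1 CPM in RC/+ and at 35.5, 31.3, 43.1, 38.5 and 31.9 CPM in RC/-. The groups did not overlap and the log2 fold change was 1.16 (SE 0.19, adjusted p = 4.46e-05). Fosl2, which encodes Fra-2, was at 44.3, 55.6 and 45.6 CPM in RC/+ and at 122, 113, 75.2, 93.7 and 100.5 CPM in RC/-. Again there was no overlap (log2 fold change 1.04, SE 0.15, adjusted p = 3.84e-06). Fosb was at 3.88, 6.33 and 4.54 CPM in RC/+ and at 12.8, 8.74, 6.32, 6.46 and 6.06 CPM in RC/-, where replicate 13 stood highest. Its log2 fold change of 0.68 (95% interval 0.11 to 1.24) did not pass (adjusted p = 0.0543). Fosl1, which encodes Fra-1, was between 2.17 and 2.61 CPM in RC/+ and between 2.14 and 3.19 CPM in RC/- (log2 fold change 0.17, 95% interval -0.26 to 0.60, adjusted p = 0.563).

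Atf3, a stress-induced repressor in many cell types, was at 10.1, 11.9 and 7.99 CPM in RC/+ and at 21.04, 17.91, 21.01, 27.87 and 23.8 CPM in RC/-. The groups did not overlap (log2 fold change 1.16, SE 0.20, adjusted p = 5.49e-05). Egr1 had the largest difference of the set. It was at 47.5, 21.2 and 16.3 CPM in RC/+ and at 81.2, 73.9, 92.98, 92.3 and 90.4 CPM in RC/- (log2 fold change 1.75, SE 0.22, adjusted p = 9.04e-07). Ier3 went the other way, at 83.8, 78.9 and 70.5 CPM in RC/+ and 65.7, 44.8, 62.4, 62.6 and 53.2 CPM in RC/-. Every RC/- kidney was below every RC/+ kidney for Ier3 (log2 fold change -0.44, SE 0.14, adjusted p = 0.0130). In total 6 members had RC/- wholly above RC/+ and 1 had it wholly below, beside 26% and 11.6% of all genes.

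RC/+ replicate 4 stood apart from the other RC/+ kidneys. Its CPM was 2.53 times the mean of the other RC/+ kidneys for Egr1, 1.87 times for Fos and 1.85 times for Jun, but 1.03 times for Jund, 1.02 times for Atf3 and 0.876 times for Fosl2. Being highest by more than 1.5 times was seen for these 3 of 10 members and for 10.7% of all genes tested. Without that kidney the log2 fold changes of RC/- against RC/+ were 2.20 for Egr1, 1.46 for Fos and 1.02 for Jun, so the difference was larger in each. The call of Ier3 was lost without it (log2 fold change -0.38, adjusted p = 0.0683). Fosb passed without RC/+ replicate 5 (log2 fold change 0.87, adjusted p = 0.0347) and without RC/- replicate 15, 16 or 17 (log2 fold changes 0.75, 0.74 and 0.76).

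The scaling of the libraries shifted the background. With TMM factors the all-gene median on the log2 scale moved from 0.14 to 0.01, and 17.03% of genes were higher and 17.3% lower. The same 7 members passed as higher and Ier3 as lower, with log2 fold changes from 0.59 (Jun) to 1.61 (Egr1) among the 7 and -0.58 for Ier3.

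Markers of other cell types moved in the same comparison. Of 7 macrophage and myeloid markers 6 were higher in RC/- (S100a8 was not), and their sum was 189.8 to 206.3 CPM in RC/+ and 397.7 to 692.4 CPM in RC/-. Of 5 fibroblast markers 3 were higher, with sums of 976.8 to 1390.0 and 2340.8 to 3951.1 CPM. All 5 proximal tubule markers were lower (5112 to 5601 and 1044 to 2752 CPM), and both podocyte markers were lower (115 to 137 and 35.9 to 56.4 CPM). Of 4 collecting duct markers 3 were higher and 1 was lower, with sums of 798 to 1066 and 1073 to 2992 CPM. No marker of these lists was at 0 in any library. Of 3 thick ascending limb markers 2 were lower, and of 3 T cell and of 3 endothelium markers 1 each was lower. Among 4 cell cycle, 3 erythroid and 6 muscle markers 0 passed. The part of these cell types in the values of the members was not tested.

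**Figure D2:**
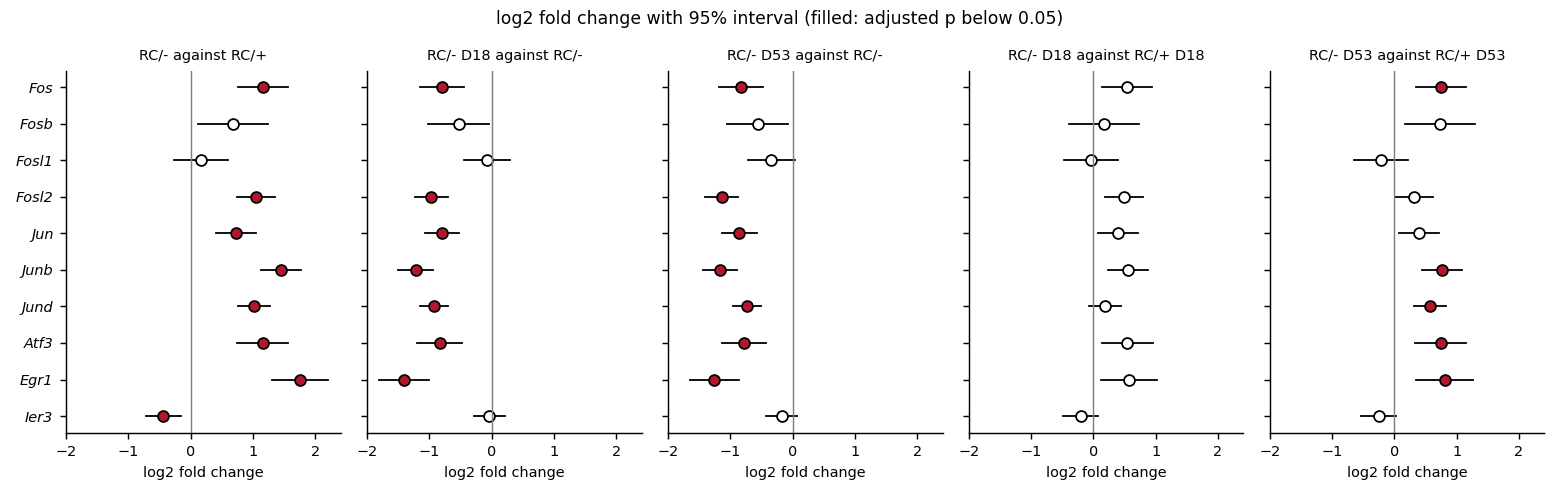
log2 fold change (x axis) with its 95% interval for the 10 genes in 5 comparisons, filled where the adjusted p was below 0.05. From left to right, 7 genes are higher and Ier3 lower in RC/-, 7 are lower in each edited RC/- group than in unedited RC/-, 0 pass within the D18 line and 5 pass within the D53 line.

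Edited RC/- kidneys were set against unedited RC/- kidneys, to see what removal of the miR-17 motif changes in the cystic genotype. In both lines Fos, Fosl2, Jun, Junb, Jund, Atf3 and Egr1 were lower than in RC/-. Fosb, Fosl1 and Ier3 did not pass in either. Both comparisons use the same 5 RC/- kidneys, so they are not independent of each other or of the comparison with RC/+.

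In RC/- D18, 7 of 10 genes were lower and 0 higher, beside 26.9% of all genes lower and 14.3% higher, and the median log2 fold change was -0.82 for the members and -0.10 for all genes. Egr1 was at 20.7, 32.2, 36.1, 34.5 and 42.6 CPM, all below the 73.9 CPM of the lowest RC/- kidney (log2 fold change -1.41, SE 0.19, adjusted p = 2.24e-06). Junb was at 46.2, 47.7, 75.6, 54.5 and 73.0 CPM (log2 fold change -1.22, SE 0.14, adjusted p = 1.22e-07). Both lay clear of RC/-. Fosl2 was at 55.6, 45.3, 66.1, 42.0 and 48.6 CPM (log2 fold change -0.97, adjusted p = 1.24e-06). Jund was at 34.0, 32.4, 41.5, 34.7 and 34.8 CPM (log2 fold change -0.93, adjusted p = 2.92e-07). Jun was at 71.9, 72.1, 107, 94.2 and 87.1 CPM (log2 fold change -0.80, adjusted p = 4.14e-05). None of these 3 overlapped RC/-. Fos was at 15.8, 16.9, 21.7, 24.2 and 26.4 CPM (log2 fold change -0.80, adjusted p = 0.000490), also without overlap. Atf3 was at 9.90, 11.2, 17.9, 13.1 and 10.9 CPM (log2 fold change -0.84, adjusted p = 0.000347), and its replicate 20 just reached the lowest RC/- value. The groups were thus apart for 6 of 10 members, beside 18.8% of all genes.

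Fosb in RC/- D18 was at 3.20 to 6.94 CPM (log2 fold change -0.53, 95% interval -1.01 to -0.04, adjusted p = 0.0789). Fosl1 was at 1.96 to 3.11 CPM and Ier3 at 48.1 to 66.4 CPM, with log2 fold changes of -0.07 (95% interval -0.45 to 0.30) and -0.04 (95% interval -0.28 to 0.21). With TMM factors the signs of Fosl1 and Ier3 turned, to 0.041 and 0.082.

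Within RC/- D18 the muscle-bearing replicates 20 to 22 lay above replicates 18 and 19 without overlap for Fos, Jun, Junb, Jund and Egr1, as for 11.4% of all genes. For Jun, replicates 18 and 19 were at 71.9 and 72.1 CPM and replicates 20 to 22 at 87.1 to 107 CPM. Without replicates 20 to 22, 8 members were lower in RC/- D18 than in RC/-, beside 16.5% of all genes. The additional one was Fosb (log2 fold change -0.87, adjusted p = 0.0417). The 7 calls were therefore also made in the kidneys with few muscle counts, but RC/- D18 then held only replicates 18 and 19.

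In RC/- D53, 7 of 10 genes were lower and 0 higher, beside 18.9% lower and 11.3% higher, and the median log2 fold change was -0.80 for the members and -0.08 for all genes. Egr1 was at 33.1, 36.8, 35.1, 35.7 and 38.8 CPM (log2 fold change -1.26, SE 0.19, adjusted p = 1.94e-05). Junb was at 51.0, 58.5, 65.4, 53.4 and 76.6 CPM (log2 fold change -1.16, SE 0.14, adjusted p = 6.52e-07). Fosl2 was at 44.5, 44.7, 43.9, 38.9 and 55.2 CPM (log2 fold change -1.14, SE 0.13, adjusted p = 3.69e-07). These 3 had the largest differences, and in each the 5 kidneys lay below all RC/- kidneys. Jun was at 84.2, 84.3, 84.8, 73.4 and 84.4 CPM (log2 fold change -0.85, adjusted p = 3.34e-05). Fos was at 18.9, 23.4, 19.9, 17.3 and 21.98 CPM (log2 fold change -0.82, adjusted p = 0.000554). Jund was at 41.3, 39.98, 39.1, 30.8 and 54.8 CPM (log2 fold change -0.73, adjusted p = 1.57e-05). In Jund the highest kidney, replicate 27, was close to the lowest RC/- kidney, at 56.3 CPM. Atf3 was at 14.2, 16.7, 14.7, 8.25 and 12.1 CPM (log2 fold change -0.78, adjusted p = 0.00113). All 7 were apart from RC/-, beside 11.8% of all genes. Every RC/- D53 library and no RC/- library is in the muscle-bearing set 20 to 27, so the edit and that set cannot be told apart in this comparison. Fosb, Fosl1 and Ier3 had log2 fold changes of -0.56 (adjusted p = 0.0788), -0.34 (adjusted p = 0.167) and -0.18 (adjusted p = 0.287). Fosb passed without RC/- D53 replicate 24 (log2 fold change -0.70, adjusted p = 0.0350).

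The macrophage, fibroblast and proximal tubule marker sums also lay nearer to RC/+ in the edited RC/- kidneys. The macrophage sum was 237.9 to 257.7 CPM in RC/- D18 and 256.0 to 341.9 CPM in RC/- D53, with 6 of 7 markers lower than in RC/- in each. The fibroblast sum was 569.8 to 1731.9 and 1150.5 to 2034.0 CPM, with 4 of 5 markers lower in each. The proximal tubule sum was 4794 to 6571 and 3677 to 4783 CPM, with 5 of 5 higher in each. The erythroid sum did not follow this, at 228.0 to 419.1 CPM in RC/+ and 203.9 to 387.4 CPM in RC/-. It was 251.2 to 531.4 CPM in RC/- D18 and 373.6 to 1144.6 CPM in RC/- D53. The part of these sums in the values of the members was not tested.

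The comparisons inside each edited line ask how much of the cystic difference was left after the motif was removed. In RC/- D18 against RC/+ D18, 0 of 10 members passed by limma-trend (0 by edgeR and by DESeq2), beside 0.266% of all genes, and 6 had an unadjusted p below 0.05, beside 8.91% of all genes. The log2 fold changes ran from -0.20 for Ier3 to 0.57 for Egr1, with a median of 0.44 against 0.04 for all genes. The lowest adjusted p was 0.175, for Junb (log2 fold change 0.56, 95% interval 0.24 to 0.88). Junb, Jun and Atf3 had every RC/- D18 kidney above every RC/+ D18 kidney, beside 3.85% of all genes. Junb in RC/+ D18 was at 44.5, 35.0 and 39.1 CPM. A difference was thus not detectable by the test after adjustment, and the unadjusted intervals of Fos, Fosl2, Jun, Junb, Atf3 and Egr1 lay above 0. With libraries 20 to 27 as a covariate the log2 fold changes were smaller, at 0.24 for Egr1, 0.25 for Junb, 0.20 for Fos, 0.15 for Jun and 0.32 for Atf3, and 0.47 for Fosl2.

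In RC/- D53 against RC/+ D53, 5 of 10 members were higher (beside 2.45% of all genes) and 0 lower. Egr1 was at 19.8, 21.6 and 20.1 CPM in RC/+ D53 (log2 fold change 0.81, SE 0.22, adjusted p = 0.0490). Junb was at 35.1, 34.7 and 36.8 CPM there (log2 fold change 0.76, SE 0.16, adjusted p = 0.00526). Fos and Atf3 both had 0.74 (adjusted p = 0.0371 and 0.0425) and Jund had 0.57 (adjusted p = 0.0107). Fos, Jun, Junb, Atf3 and Egr1 had the groups apart, beside 8.12% of all genes. This count changed with the processing. It was 2 with TMM factors and with edgeR, 6 when only the compared groups were fitted, and leaving out 1 kidney gave 1 to 4. It was 1 without RC/+ D53 replicate 11 and 2 without replicate 10, 12, 23, 24, 25 or 27, and Junb passed in all of these. It was 0 with libraries 20 to 27 as a covariate, where the value of Junb was 0.25 on the log2 scale (adjusted p = 0.591). All RC/- D53 libraries and no RC/+ D53 library are in that set, so the covariate is estimated from RC/- D18 alone. All 6 muscle markers and 4 of 7 macrophage markers were also higher in RC/- D53 than in RC/+ D53, where the macrophage sum was 182.6 to 211.4 CPM, and their part in the values of the members was not tested.

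The edited lines were also compared with each other. In RC/- D53 against RC/- D18, 0 of 10 members passed by limma-trend (0 by edgeR and by DESeq2), beside 0.266% of all genes, and 0 had an unadjusted p below 0.05, beside 13.3% of all genes. The log2 fold changes ran from -0.27 for Fosl1 (95% interval -0.64 to 0.11) to 0.19 for Jund (95% interval -0.03 to 0.42). For Egr1 the difference was 0.15 (95% interval -0.25 to 0.54), for Junb 0.05 (-0.22 to 0.33) and for Fos -0.03 (-0.38 to 0.32).

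In noncystic kidneys the motif deletion gave 0 called members in each line by limma-trend, edgeR and DESeq2. After adjustment 0.00443% of all genes were called in RC/+ D18 against RC/+ and 0.0% in RC/+ D53 against RC/+. Before adjustment, 2 members in D18 had a p below 0.05, beside 4.49% of all genes, and 4 in D53, beside 2.33%. Of the 10 members 9 had a negative log2 fold change in each, with medians of -0.22 and -0.39, and both comparisons share the RC/+ kidneys, replicate 4 among them. Without that kidney 7 were negative in D18 and 8 in D53, with medians of -0.17 and -0.29, and Egr1 turned to 0.23 and 0.14. Jun had log2 fold changes of -0.47 (95% interval -0.83 to -0.11) in D18 and -0.52 (95% interval -0.88 to -0.16) in D53, and of -0.17 and -0.22 without RC/+ replicate 4. Its values were 70.7, 63.2 and 61.0 CPM in RC/+ D18 and 60.9, 68.2 and 58.9 CPM in RC/+ D53. Fosl2 was wholly below RC/+ in D18, beside 5.07% of all genes, and Fosl2, Fosb and Junb were in D53, beside 3.89% of all genes.

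Whether the RC/- against RC/+ difference itself changed with the edit was tested by an interaction contrast. In the D18 line 3 members had a smaller difference than in the unedited line (10.8% of all genes were called in this direction). These were Egr1 (-1.18 on the log2 scale, SE 0.31, adjusted p = 0.00992), Junb (-0.88, SE 0.22, adjusted p = 0.00696) and Jund (-0.83, SE 0.18, adjusted p = 0.00212). Without RC/+ replicate 4 the count was 5, with Fos (-0.92, adjusted p = 0.0149) and Jun (-0.63, adjusted p = 0.0173) as the additional genes. In edgeR Egr1 did not pass (-0.91, adjusted p = 0.0570). In the D53 line 2 members had a smaller difference (6.55% of all genes), Fosl2 (-0.73, SE 0.21, adjusted p = 0.0231) and Junb (-0.68, SE 0.22, adjusted p = 0.0476). Egr1 was at the threshold there (-0.95, adjusted p = 0.0501), and without RC/+ replicate 4 it passed (-1.40, adjusted p = 0.000939), as did Jun (-0.63, adjusted p = 0.0247) and Junb, while Fosl2 did not (-0.67, adjusted p = 0.0649). Both D53 calls were lost with TMM factors (adjusted p = 0.0577 for Fosl2 and 0.126 for Junb), and the count was 0 without RC/+ replicate 6 or RC/+ D53 replicate 10 or 11. It was 1 without RC/+ replicate 5, RC/+ D53 replicate 12, RC/- replicate 15, 16 or 17, or RC/- D53 replicate 23, 24 or 26. All RC/- D53 libraries and no other library of this contrast are in the muscle-bearing set 20 to 27. The edit and that set therefore cannot be told apart. With that set as a covariate, estimated from RC/- D18 alone, Junb (-1.19, adjusted p = 0.0161) and Egr1 (-1.49, adjusted p = 0.0488) passed. Fosl2 then did not (-0.76, adjusted p = 0.167).

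**Figure D3:**
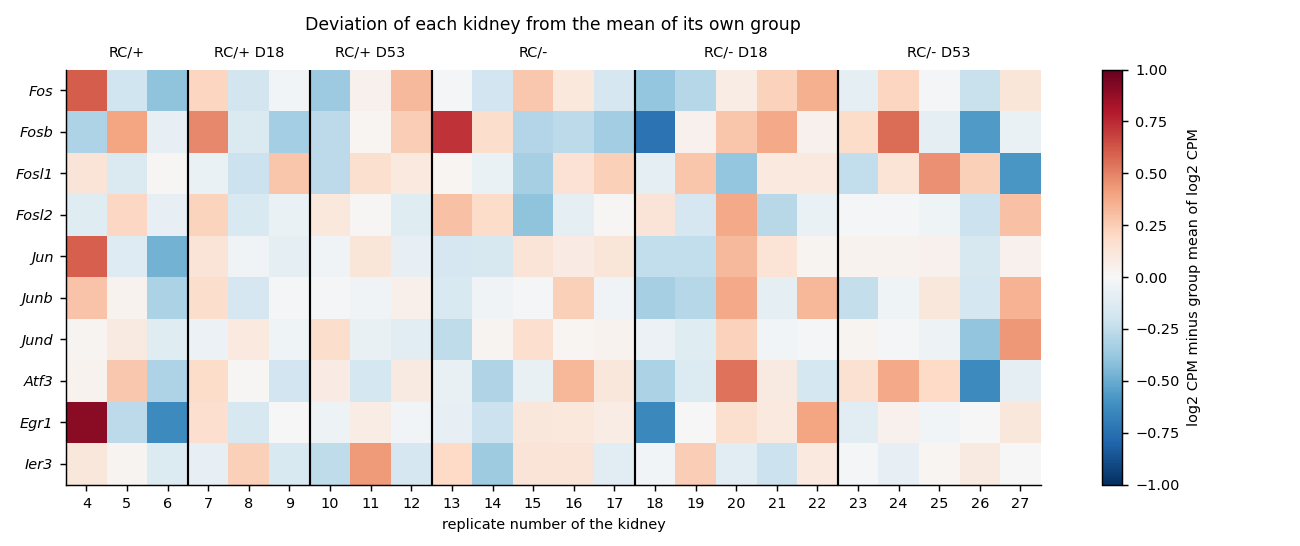
Deviation of each kidney's log2 CPM from the mean of its own group (colour, red above and blue below) for the 10 genes (rows) in 24 kidneys (columns, by replicate number). RC/+ replicate 4 is red for Egr1, Jun and Fos, and RC/- D18 replicate 18 is blue for most genes.

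Levels of different genes were compared per kilobase of exon. In RC/+ the order was led by Ier3, at 68.7 ± 5.95 CPM per kb (SD, n = 3), followed by Jun (29.5 ± 11.6), Junb (21.9 ± 4.49) and Jund (19.9 ± 1.48), whose ranges overlapped. Fos (7.14 ± 2.82), Egr1 (6.32 ± 3.74), Fosl2 (5.01 ± 0.637) and Atf3 (4.64 ± 0.909) came next and overlapped their neighbours. Fosl1 (1.18 ± 0.110) and Fosb (0.787 ± 0.203) were lowest. In RC/- Junb came first, at 59.1 ± 6.14 CPM per kb (SD, n = 5), with a range that overlapped that of Ier3 (51.1 ± 7.61), and Egr1 (19.2 ± 1.85) stood above Fos (15.3 ± 2.08) in the mean with overlapping ranges. Ier3 was first again in both edited RC/- groups, at 49.7 ± 6.29 in D18 and 44.8 ± 1.94 in D53, apart from the gene that followed.

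Summed over the family, Jun, Junb and Jund were at 71.4 ± 16.8 CPM per kb in RC/+ (SD, n = 3) and 146 ± 12.5 in RC/- (SD, n = 5), and at 74.2 ± 12.04 in RC/- D18 and 77.0 ± 10.2 in RC/- D53. The Fos family sums were 14.1 ± 2.57, 28.4 ± 1.70, 16.4 ± 2.06 and 15.3 ± 1.54 CPM per kb. Junb took 30.8% ± 1.25 of the Jun family sum in RC/+ and 40.4% ± 2.32 in RC/-. It took 34.5% ± 3.34 in RC/- D18 and 34.4% ± 2.55 in RC/- D53. Fosl1 took 8.49% ± 1.38 of the Fos family sum in RC/+ and 4.74% ± 0.826 in RC/-. Fos took 49.4% ± 10.5 and 54.0% ± 7.18, within the spread. These shares are given without a test, and sums and shares that include Fosl1 or Jund carry the strand uncertainty given above.

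**Figure D4:**
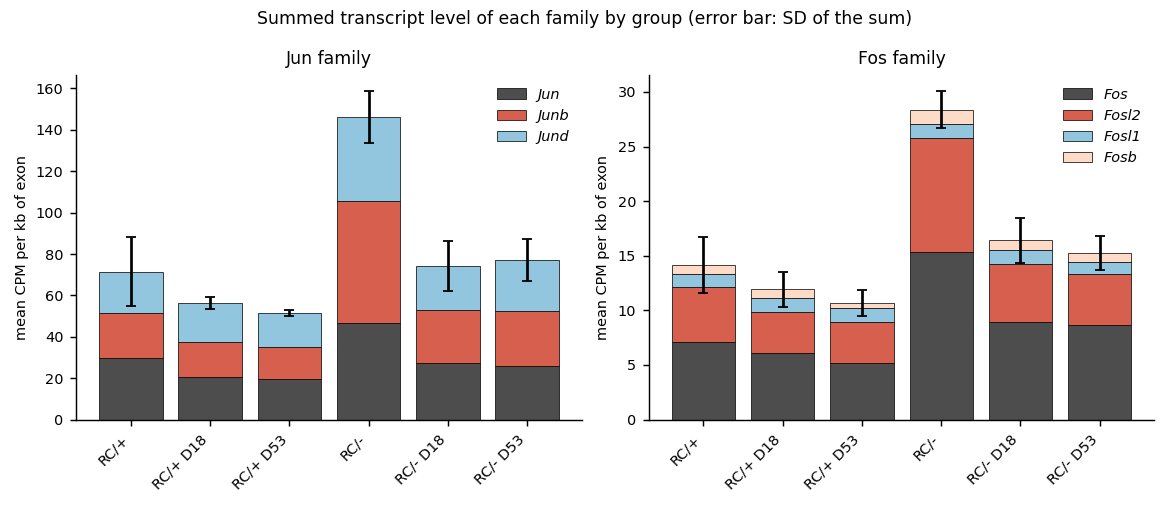
Mean CPM per kb of exon (y axis, from 0) of the Jun family (left) and Fos family (right) by group, stacked by gene, with the SD of the sum over 3 (RC/+ groups) or 5 (RC/- groups) kidneys as the error bar. Unedited RC/- kidneys reached 146 and 28.4 CPM per kb, and the edited RC/- groups stayed at or below 77.0 and 16.4.

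Other immediate early genes were counted in the same way. Of a list of 40, 38 were found by symbol and 37 passed the expression limit. In RC/- against RC/+ 21 were higher and 2 lower, beside 25.5% and 12.2% of all genes. The median log2 fold change was 0.62 for the 37 genes and 0.14 for all genes. The 8 of the list with the largest differences were all higher. Socs3, a feedback inhibitor of cytokine signalling, averaged 8.76 ± 1.09 CPM (SD, n = 3) in RC/+ against 85.0 ± 16.7 CPM (SD, n = 5) in RC/- (log2 fold change 3.25, adjusted p = 2.84e-13). Egr2, a relative of Egr1, averaged 1.18 ± 0.135 against 10.1 ± 2.27 CPM (log2 fold change 2.99, adjusted p = 5.43e-10). The proto-oncogene Myc had 1.57, the growth arrest gene Gadd45b 1.37, the zinc finger factor Klf6 1.35 and the NF-kB regulator Nfkbiz 1.15. The MAP kinase phosphatases Dusp2 and Dusp5 had 1.43 and 1.25. The genes that were lower, Sgk1 (-0.83, adjusted p = 0.00991) and Dusp1 (-0.49, adjusted p = 0.0450), were named after their values were seen.

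Against RC/-, 22 of these 37 genes were lower and 2 higher in RC/- D18, and 21 lower and 1 higher in RC/- D53, with medians of -0.46 and -0.49. Of all genes, 26.9% were lower and 14.3% higher in D18, and 18.9% lower and 11.3% higher in D53. The all-gene medians were -0.10 and -0.08. Socs3 had log2 fold changes of -2.82 and -2.33, Egr2 of -2.62 and -2.13, Dusp2 of -1.45 and -1.12, and Nfkbiz of -1.02 and -1.12. The genes that were higher, named after their values were seen, were Sgk1 in both lines (0.98 and 0.69) and Per1 in D18 (0.62). Inside the D18 line 1 gene was higher in RC/- than in RC/+, Trib1 (0.57, adjusted p = 0.0327), and inside the D53 line 5 were, Egr2 (1.24, adjusted p = 0.00199), Socs3 (0.92, adjusted p = 0.000651), Trib1 (0.64, adjusted p = 0.00199), Klf6 (0.52, adjusted p = 0.0328) and Hbegf (0.46, adjusted p = 0.0139). Trib1 and Hbegf were likewise chosen after their values were seen. Of all genes, 0.266% were called in either direction inside the D18 line and 2.45% were higher inside the D53 line.

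**Figure D5:**
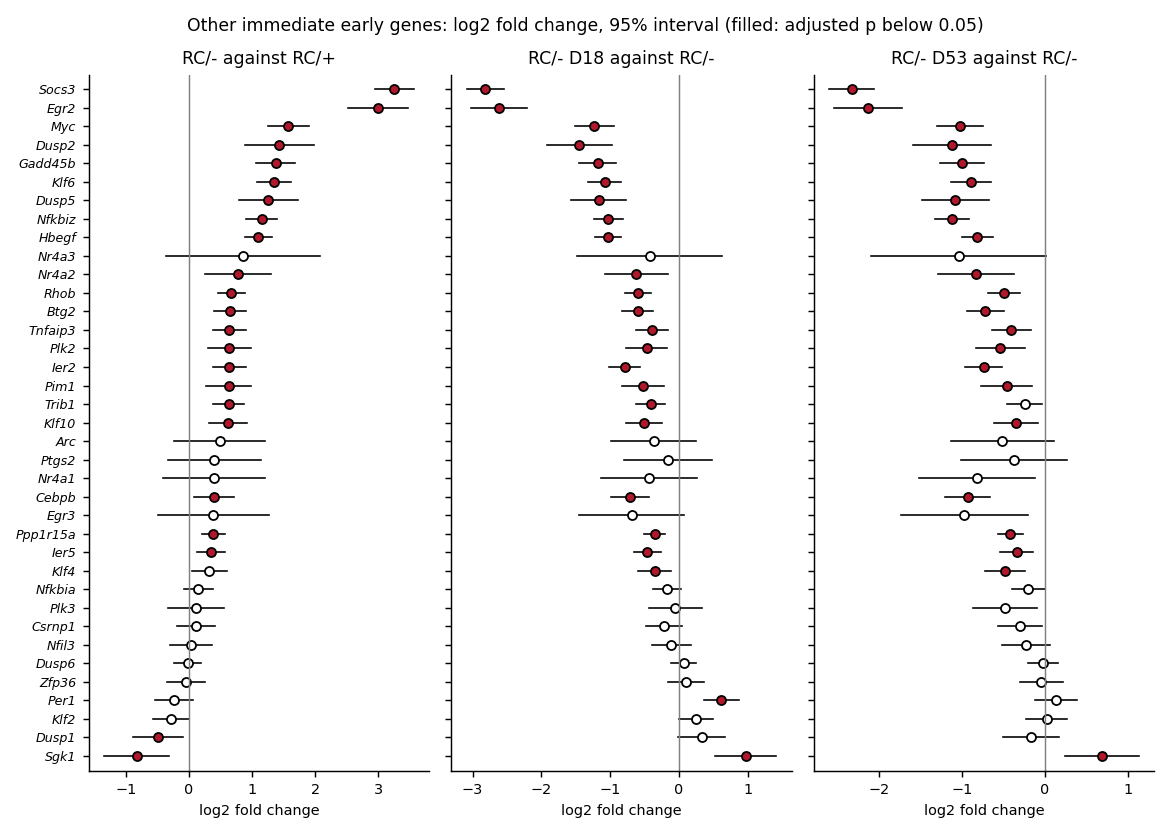
log2 fold change (x axis) with its 95% interval for 37 other immediate early genes, ordered by RC/- against RC/+, in 3 comparisons, filled where the adjusted p was below 0.05. Socs3 and Egr2 lie farthest from 0 in each panel, and Sgk1 lies on the opposite side.

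Of 11 other AP-1 related leucine zipper genes, 3 were higher in RC/- than in RC/+ and 0 lower, with a median log2 fold change of 0.22, a share near the 25.5% of all genes that were higher. Batf, which pairs with Jun in lymphocytes, had 1.44 (adjusted p = 0.000228). The small Maf protein gene Maff had 1.40 (adjusted p = 2.48e-06), from 10.4 ± 3.70 CPM in RC/+ to 26.3 ± 3.46 CPM in RC/-, and Batf3 had 0.77 (adjusted p = 0.00697). Ddit3, Atf7, Mafk, Atf4, Atf2, Jdp2, Batf2 and Mafg did not pass, with log2 fold changes from 0.33 for Ddit3 to -0.19 for Mafg. In RC/- D18 against RC/- 5 were lower, Batf (-1.65), Maff (-1.55), Batf3 (-0.50), Mafk (-0.32) and Atf4 (-0.28), and Mafg was higher (0.32). In RC/- D53 against RC/- 3 were lower, Maff (-1.35), Batf (-1.01) and Mafk (-0.35), and 0 higher. Of all genes, 26.9% were lower and 14.3% higher in D18 against RC/-, and 18.9% lower and 11.3% higher in D53. Inside the edited lines 0 of 11 passed, beside 0.266% of all genes called in D18 and 2.45% higher in D53.

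Of 18 kinases and transcription factors that act upstream of immediate early genes 17 were in the table and passed the expression limit, and 6 were higher and 1 lower in RC/- than in RC/+, with a median log2 fold change of 0.16, beside 25.5% higher, 12.2% lower and a median of 0.14 for all genes. The kinase gene Map3k1, which feeds the JNK pathway, rose from 60.9 ± 7.76 CPM in RC/+ to 176 ± 26.4 CPM in RC/- (log2 fold change 1.52, adjusted p = 1.50e-09). Rps6ka1, which encodes the kinase RSK1 downstream of ERK, had 1.06 (adjusted p = 2.37e-09), Elk4, a partner of serum response factor, 0.54 (adjusted p = 0.00337) and Mapk3, which encodes ERK1, 0.34 (adjusted p = 0.000133). Against RC/-, Map3k1 was at -1.24 in D18 and -0.90 in D53, Rps6ka1 at -0.86 and -0.57, and Mapk3 at -0.35 and -0.30, all past the threshold. Elk4 was at -0.26 and -0.25 and passed in neither. In the list as a whole 6 were lower and 2 higher in D18, beside 26.9% and 14.3% of all genes. In D53 5 were lower and 1 higher, beside 18.9% and 11.3% of all genes.

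Of 16 textbook AP-1 target genes, 11 were higher and 3 lower in RC/- than in RC/+, beside 25.5% and 12.2% of all genes. The median log2 fold change was 1.74 for the list and 0.14 for all genes. Those of the list that were lower were Mmp9, Mmp13 and Vegfa (-1.54, -1.11 and -0.39), named after their values were seen. Against RC/-, 11 were lower and 4 higher in each edited line, with medians of -1.57 in D18 and -1.48 in D53. The all-gene shares were 26.9% lower and 14.3% higher in D18, and 18.9% lower and 11.3% higher in D53. Inside the D18 line 0 passed, and inside the D53 line 2 were higher, Lif (1.67) and Timp1 (1.36), and 1 lower, Mmp9 (-1.50). Of all genes, 0.266% were called inside D18, and 2.45% were higher and 0.146% lower inside D53.

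The genes most like the members were sought in 2 ways, as a description. Over the 6 group means, genes among the highest in Pearson correlation with the members' averaged profile were Fam83a (r = 0.998), C9orf72, Ccdc116, Grhl3, Agfg2, Nr4a2 and Hspb1 (r = 0.995). So few points give high values readily, and 38.1% of all genes had r above 0.6. Over the 24 kidneys after group means were removed, the genes were Dusp2 (r = 0.776), Tlr9, D830039M14Rik, Alx4, Gm37274, Fsd2, Lyrm1 and Slamf9 (r = 0.699). Here 0.235% of all genes and 6 of 37 other immediate early genes had r above 0.6. The named genes are the highest of 22560, so high values are also favoured by the choice. The members shared this profile unevenly, with median correlations to the other members from -0.10 (Fosl1) to 0.47 (Junb). Genes measured in the same library share its depth and its tissue sample.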

How the data were processed

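RNA-seq was performed on total RNA of whole kidneys from 24 mice (Qiagen miRNeasy extraction, libraries by Genewiz). According to the study's methods and the submitters' processing notes, reads were trimmed with Trim Galore 0.6.3, aligned to GRCm38 with STAR 2.5.3a and counted per gene on Ensembl release 94. The authors deposited raw read counts, without normalization; the strand setting is not given in the sources used here. The number of unused value columns was 0, and genes without a symbol (343) held at most 0.0261% of a library.

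CPM used total counts. Tests were limma-trend (limma 3.58.1, R 4.3.3) on log2 CPM with a prior count of 2 (edgeR 4.0.16), keeping genes whose log2 CPM averaged -3 or more, 1 mean per group over all 24 libraries, two-sided, Benjamini-Hochberg adjustment over 22570 genes. The study's methods name limma-trend, log2 CPM and the expression limit, and do not state the model. The shared fit, the prior count, the 8 comparisons and the 2 interaction contrasts were chosen here. The sample titles name no litter or pair, so mice were treated as independent, and p-values measure the spread between mice. Alternatives were TMM or DESeq2 size factors, other filters and prior count 0.5, edgeR quasi-likelihood, DESeq2 1.42.0, only the compared groups, sex or libraries 20 to 27 as covariates, RC/- D18 without libraries 20 to 22, and leaving out each library. Exon lengths came from GENCODE M21. The tests were also run on simulated counts in which few genes were changed, in both directions. Those counts did not hold the broad shift seen between RC/- and RC/+, and their outcome is not reported here.

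The members and all gene lists were chosen with earlier results of these data known. All members were named, the 8 and 4 most changed called genes of the other immediate early and upstream lists, all related leucine zipper genes, and the 8 most alike genes per measure, of which 1 is not reported here. No correction was made for reads shared with opposite-strand genes.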

Additional observations from a re-analysis of the deposited data

Results flagged for a closer look

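A kidney stood apart within its group, by Dixon's gap test at the 95% level, for a pair of members. Of 30 such tests (10 genes in 3 groups of 5 kidneys), about 1 in 20 would be called by chance. Jun in RC/- D53 replicate 26 was at 73.4 CPM, below the other 4 kidneys at 84.2 to 84.8 CPM. Jund in RC/- D18 replicate 20 was at 41.5 CPM, above the other 4 at 32.4 to 34.8 CPM.

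The cystic difference differed between lines by a test of the interaction itself for 3 members in D18 and 2 in D53. The change in the log2 difference was -1.18 for Egr1, -0.88 for Junb and -0.83 for Jund in D18, and -0.73 for Fosl2 and -0.68 for Junb in D53. Junb was the member called in both lines, and both contrasts share the RC/- and RC/+ kidneys.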

How the results depend on the processing

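Of 41 gene values under 839 alternatives, 739 kept direction and side of the threshold, 69 lost the call, 15 gained it and 16 changed sign. Members called in RC/- against RC/+ (8) ranged from 7 to 9, in RC/- D18 against RC/- (7) from 7 to 8 and in RC/- D53 against RC/- (7) from 7 to 8, and the other pairwise comparisons of 0 members stayed at 0. In RC/- D53 against RC/+ D53 the 5 members became 2 with TMM factors, with DESeq2 size factors, with no expression filter and with edgeR, 3 with sex as a covariate 0 with libraries 20 to 27 as a covariate and 6 with only the compared groups, and 1 to 4 when 1 library was left out. The D53 interaction (2 members) gave 0 with TMM factors, DESeq2 size factors and edgeR, 1 with no filter and with the DESeq2 test, 3 with a limit of mean log2 CPM 0, with only the compared groups and with sex as a covariate, and 0 to 3 when 1 library was left out. The D18 interaction (3) gave 2 to 4 under the other settings and 3 to 5 when 1 library was left out. The sign changed for values near 0. Fosl1 in RC/- D18 against RC/- had log2 fold changes of 0.041 with TMM factors, 0.036 with DESeq2 size factors, 0.047 with edgeR, 0.044 with the DESeq2 test, 0.020 both with libraries 20 to 27 as a covariate and without libraries 20 to 22, and -0.15 to 0.021 when 1 library was left out. Ier3 there had 0.082 with TMM factors, 0.077 with DESeq2 size factors, 0.076 with edgeR, 0.073 with the DESeq2 test, 0.077 both with that covariate and without libraries 20 to 22, and -0.12 to 0.019 when 1 library was left out. Ier3 in RC/- D53 against RC/- had 0.012 with the covariate. The cause was not tested. No paired analysis was possible because the sample titles name no litter or pair, so littermates could not be identified. Counting error limits Fosl1, with 39 to 79 counts per library.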
